A study of Mus musculus with 9 samples.

Results

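Prostaglandin synthesis in the mouse epididymis was followed through 10 genes picked by name, Ptgs1, Ptgs2, Ptgds, Hpgds, Ptges, Ptges3, Hpgd, Ptgr1, Ptger4 and Ptgfr, out of 32195 genes in the table of unique molecular identifiers (UMIs, tags by which each captured transcript is counted once). Single cells were sequenced from the caput, corpus and cauda, the proximal, middle and distal segments of the epididymis, of untreated C57BL/6 mice. At postnatal day 42 (P42) there was 1 pool of 5 mice, and at P56 there were 2 pools of 5 mice each, called replicate 1 and replicate 2, so that the data comprised 9 libraries. The 3 segments of a pool came from the same mice, P42 has no replicate, and the spread within P56 is that between 2 pools. A level below is given in CPM, the UMIs of a gene in the summed cells of 1 type in 1 library, scaled to a total of 1000000 UMIs.

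Prostaglandins are lipid mediators made from arachidonic acid, which phospholipases release from membranes. The cyclooxygenases Ptgs1 (constitutive) and Ptgs2 (inducible) make the common precursor, which terminal synthases turn into prostaglandin D (Ptgds, the lipocalin type, and Hpgds, the haematopoietic type) or prostaglandin E (Ptges, the inducible membrane enzyme, and Ptges3, also known as the co-chaperone p23). Hpgd and Ptgr1 act in the breakdown of prostaglandins, and Ptger4 and Ptgfr are receptors for prostaglandins E and F. In the male tract Ptgds is known as an abundant secreted protein of the epididymal fluid that also carries lipophilic molecules.

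The prostaglandin D synthases differed in the cell type that held them, and a part of their start-site sequence in this was not tested. The sequence around a start site of each gene is shown, from 250 bases before to 50 bases after 1 start of the gene taken from RefSeq in GRCm38.p6. The Ptgds window lies at chr2:25469700-25469999 on the minus strand and the Hpgds window at chr6:65144681-65144980 on the minus strand. The whole gene in RefSeq, with all its transcripts, begins further upstream than the start of the window, at base 25470110 for Ptgds and 65144981 for Hpgds, so both windows lie within the gene as annotated, and which start these cells used was not measured.
Ptgds: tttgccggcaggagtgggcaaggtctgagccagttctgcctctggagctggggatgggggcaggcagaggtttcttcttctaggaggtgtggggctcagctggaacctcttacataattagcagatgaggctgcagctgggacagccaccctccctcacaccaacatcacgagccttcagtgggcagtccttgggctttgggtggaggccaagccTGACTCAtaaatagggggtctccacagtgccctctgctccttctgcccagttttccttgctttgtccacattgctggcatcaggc
Hpgds: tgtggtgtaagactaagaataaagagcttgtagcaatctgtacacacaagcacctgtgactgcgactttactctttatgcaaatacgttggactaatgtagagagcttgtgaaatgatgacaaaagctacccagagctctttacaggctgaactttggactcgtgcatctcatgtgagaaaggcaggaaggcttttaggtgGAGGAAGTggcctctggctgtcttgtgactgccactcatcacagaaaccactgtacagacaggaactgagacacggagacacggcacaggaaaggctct
The capitals mark the AP-1 motif TGACTCA, whose first base lies 35 bases before that start of Ptgds, and the PU.1 motif GAGGAAGT, whose first base lies 49 bases before that of Hpgds. Such windows were found for 10 of the 10 genes and searched on both strands. TGACTCA was in the window of Ptgds alone among the 10 genes and in 5.20% of the 32851 windows of all genes. GAGGAAGT was in those of Ptgs1 and Hpgds and in 3.20% of all windows. The TATA box TATAAA was in that of Hpgd (13.6% of all windows), the androgen receptor half-site AGAACA in those of Ptges and Ptgs1 (19.0%), the Sp1 motif GGGCGG in 7 of the 10 (35.7%) and the cyclic AMP response motif TGACGTCA in 0 of the 10 (1.79%). None of these motifs contains another, and a match is a run of letters, with no measurement of binding.

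After quality control 42087 of 44869 barcodes were kept, with a median of 3088.5 to 7644 UMIs per cell by library, and 689 erythrocytes were then removed. Clusters were named from marker genes, with the 10 genes kept out of the clustering. This gave 19948 principal cells, 5101 clear/narrow cells, 4025 fibroblasts, 3572 basal cells, 2836 macrophages/monocytes, 852 sperm, 841 endothelial cells, 703 myoid cells, 473 halo/T cells and 209 ciliated cells, the last from the caput alone. Of the principal cell markers, 16 of 20 were at least 2 times as high in principal cells as in the other cells, with a median of 2.40-fold. The remaining 2838 cells stayed unnamed, among them a cluster of 1515 cells with a median of 1423 UMIs that came almost wholly from the P42 cauda. Of 41926 barcode sequences, 116 occurred in 2 or more libraries. The P42 cauda stood apart. It held 158 principal cells, against 1717 to 3307 in the other libraries. These 158 cells were also of low depth, with a median of 1637 UMIs, against medians of 2975 to 7732 in the principal cells of the other libraries. In these 158 cells the 9 fibroblast markers, all detected, summed to 30659 CPM, against 179 to 1576 in the principal cells of the other libraries. The 11 macrophage/monocyte markers, all detected, summed to 2696 against 39.5 to 324. Segment differences in principal cells are therefore also given without the P42 pool, whereas age differences in the cauda cannot be had without this library.

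Principal cells, the secretory cells of the epithelium, carried 63.1% of the 1094391 Ptgds UMIs and 51.8% of the UMIs of all genes, and 7 of the 9 genes that could be tested differed between segments there, each with its highest fitted level in the cauda. Ptgds, both cyclooxygenases, Ptges, Hpgd, Ptgr1 and Ptger4 passed, whereas Ptges3 and Hpgds did not. Sums were tested by edgeR's quasi-likelihood F test, adjusted after Benjamini-Hochberg over 16553 genes, with pools as blocks, and a gene was called at an adjusted p under 0.05 and at least 1 log2 between its highest and lowest segment. Of all genes tested, 33.7% were called. Higher levels in the cauda than in the caput were called for 7 of the 9 genes against 10.9% of all genes, higher levels in the corpus than in the caput for 5 against 12.8%, and higher levels in the cauda than in the corpus for 3 (Ptgs2, Ptgr1 and Ptger4) against 4.51%. This last set of genes depended on the P42 cauda. Without the P42 pool the call of Ptger4 was lost (0.86 log2), and Ptgds (1.54 log2), Ptgs1 (1.58 log2), Ptges (1.25 log2) and Hpgd (1.46 log2) were called higher in the cauda than in the corpus beside Ptgs2 (5.81 log2) and Ptgr1 (4.58 log2). With the low-depth P42 cauda cluster counted as principal cells Ptger4 was lost as well (0.91 log2), and Ptgs1 (1.31 log2) and Hpgd (1.34 log2) were called. The median difference of the 9 genes between cauda and caput was 3.13 log2, and that of all genes was -0.05 log2. The shares of all genes given above belong to the fit with all pools, not to its alternatives. Without the P42 pool these 7 genes were called with differences between cauda and caput of 2.41 log2 for Ptger4, 2.44 for Ptgr1, 3.75 for Ptgs1, 3.83 for Ptges, 4.32 for Ptgds, 4.85 for Hpgd and 7.35 for Ptgs2, and Hpgds was called as well, with its highest level in the caput (cauda minus caput -1.17 log2).

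**Figure D1:**
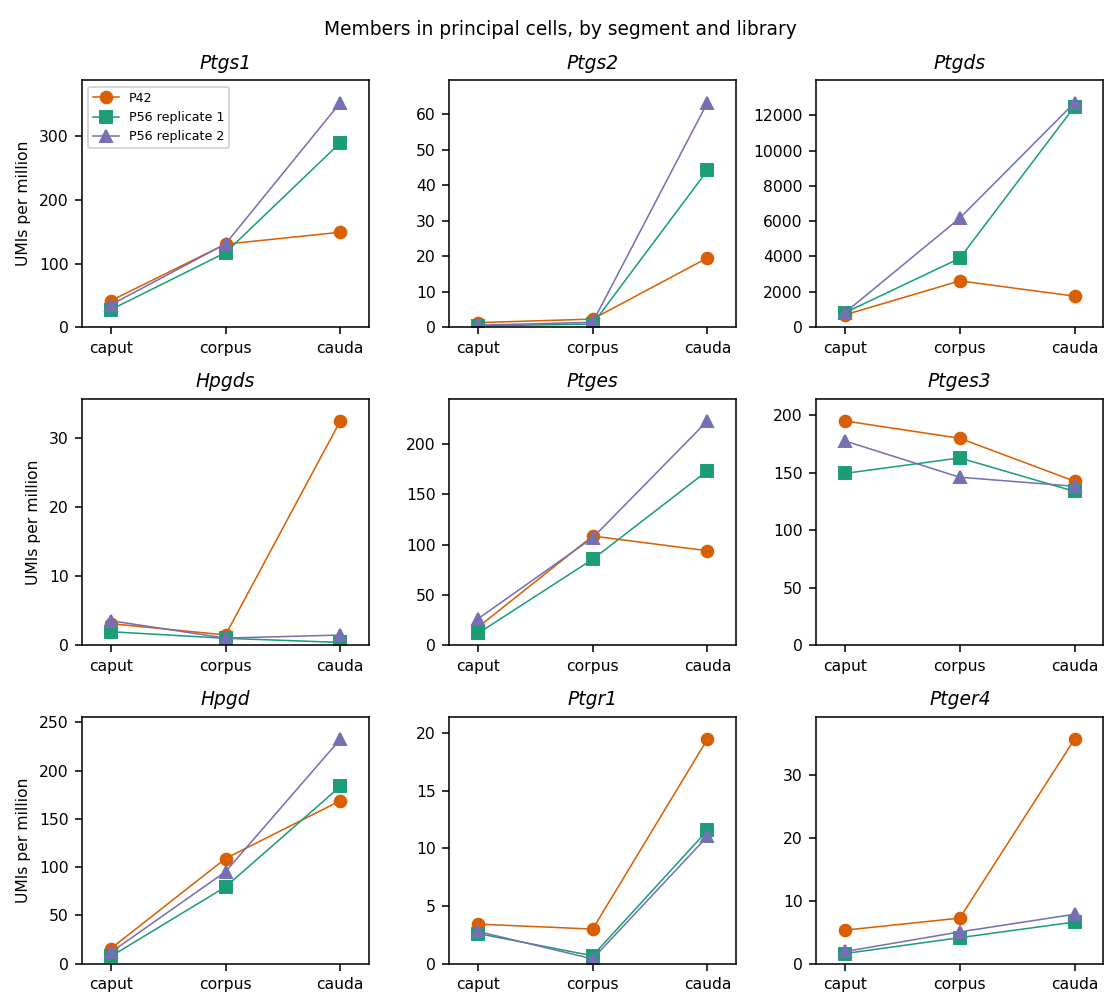
Level of 9 genes in principal cells, in CPM, by segment, with 1 point for each library and a line for each pool of mice. The cauda points of the P56 pools are the highest of each line for Ptgs1, Ptgs2, Ptgds, Ptges, Hpgd, Ptgr1 and Ptger4, while the P42 cauda, with 158 cells, lies apart for Ptgds (1752), Hpgds (32.4) and Ptger4 (35.7).

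Of the cyclooxygenases, Ptgs1 in principal cells stood at 41.5, 27.4 and 34.9 CPM in the caput of P42, P56 replicate 1 and P56 replicate 2, at 131, 117 and 131 in the corpus and at 149, 290 and 353 in the cauda. The 3 segments did not overlap. Cauda exceeded caput by 3.13 ± 0.45 log2 (SE), with an adjusted p of 0.00196 over the segments by edgeR's test. Ptgs2 was near 0 outside the cauda, at 1.24, 0.320 and 0.529 in the caput and 2.25, 0.847 and 1.33 in the corpus, and reached 19.5, 44.1 and 63.2 in the cauda. Every cauda library was above every other library. The difference between cauda and caput was 6.51 ± 0.61 log2 (edgeR, adjusted p 7.69e-05), and cauda and corpus differed by 5.30 ± 0.57 log2, whereas corpus and caput were not called apart (1.21 ± 0.66 log2), though they were without the P42 pool (1.54 ± 0.31 log2). Within the cauda, Ptgs2 was uneven among principal cell clusters. In the cluster led by Spink14, Serpine2 and Defb2 its level was 64.4 and 99.6 in the P56 replicates, and in the cluster led by Ptgds, Ly6f and Smarca1 it was 15.1 and 22.8.

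Of the prostaglandin D synthases, Ptgds in principal cells stood at 692, 815 and 820 CPM in the caput, at 2615, 3898 and 6169 in the corpus and at 1752, 12487 and 12708 in the cauda, in the order P42, P56 replicate 1 and P56 replicate 2. Caput levels were below all others, while the P42 cauda lay below all corpus libraries. The cauda exceeded the caput by 3.40 ± 0.75 log2 and the corpus exceeded it by 2.40 ± 0.69 log2 (edgeR, adjusted p over the segments 0.0173), and cauda and corpus were not called apart (0.997 ± 0.68 log2). The call was lost without P56 replicate 1 (cauda minus caput 2.77 log2) and without P56 replicate 2 (2.91 log2), and the call of Ptgs1 was lost without P56 replicate 1 (2.74 log2). Without the P42 pool the difference for Ptgds was 4.32 ± 0.28 log2. In the caput, Ptgds was higher in some principal cell clusters than in others. It stood at 1485, 1791 and 1651 in the cluster led by Lcn5, Ntsr2 and Pate13 and at 1059, 1987 and 2043 in the cluster led by Lypd8, Defb45 and Slc38a5. In 4 other clusters, led by Cst12 or Defb47 or by Adam28, it was 163 to 488 in the caput libraries with at least 10 cells. Hpgds in principal cells was 3.13, 1.97 and 3.56 in the caput, 1.497, 1.02 and 1.04 in the corpus, and 32.4, 0.417 and 1.48 in the cauda. The single high value came from the 158 cells of the P42 cauda, and the segments were not called apart (adjusted p 0.421 by edgeR).

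Of the prostaglandin E synthases, Ptges, like Ptgs1, was already higher in the corpus than in the caput (2.60 ± 0.39 log2). It was 17.9, 11.8 and 26.3 CPM in the caput, 109, 85.6 and 107 in the corpus and 94.1, 174 and 223 in the cauda of P42, P56 replicate 1 and P56 replicate 2. The caput did not overlap with the other segments, and corpus and cauda did. The cauda exceeded the caput by 3.40 ± 0.41 log2 (edgeR, adjusted p 0.000749). Ptges3 was even, at 195, 150 and 178 in the caput, 180, 163 and 146 in the corpus and 143, 134 and 138 in the cauda. The cauda values were below all others, but the fitted difference from the caput was -0.16 ± 0.25 log2 and was not called (adjusted p 0.805).

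The breakdown enzymes also had their highest levels in the cauda. Hpgd, which oxidises prostaglandins to inactive products, was 15.5, 7.41 and 11.6 in the caput, 109, 79.5 and 95.2 in the corpus and 169, 184 and 232 in the cauda. The segments did not overlap, and the cauda exceeded the caput by 4.33 ± 0.38 log2 (edgeR, adjusted p 0.000137). Ptgr1, a reductase that acts after Hpgd, was low throughout, at 3.43, 2.61 and 2.79 in the caput, 2.99, 0.678 and 0.406 in the corpus and 19.5, 11.6 and 11.0 in the cauda. Its pattern was not a steady rise, since the corpus was lower than the caput by 1.34 log2 (corpus minus caput -1.34 ± 0.43) and the cauda was higher than the caput by 2.49 ± 0.38 log2 (adjusted p over the segments 0.000392).

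Of the receptors, Ptger4 in principal cells was 5.32, 1.60 and 1.92 in the caput, 7.24, 4.12 and 5.04 in the corpus and 35.7, 6.61 and 7.85 in the cauda. Within each pool the order was caput, corpus, cauda, and the cauda exceeded the caput by 2.30 ± 0.29 log2 (edgeR, adjusted p 0.000948). Ptgfr had 41 UMIs in all cells, 13 of them in fibroblasts and 11 in principal cells, and was too low to be tested in any type. In principal cells of the P56 cauda it had 0 UMIs. This lies below a floor of 3 UMIs, or 0.179 (replicate 1) and 0.159 (replicate 2) CPM, set for counting error only. Ptgs1, Ptger4 and Ptgfr overlap exons of genes on the opposite strand (Gm43621, Gm15937 and Ttc33, and Gm43618), and whether the counting used strand is not given in the sources used here.

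Of the remaining genes of the pathway, fewer had their highest level in the cauda, a difference between the lists that was not tested. Both lists were chosen with earlier results of these data known. Of 28 listed genes for substrate release, other terminal synthases, other receptors, transport and further breakdown, 19 could be tested in principal cells and 7 were called, where 33.7% of all genes were, 4 of them highest in the caput (Pla2g5, Pla2g4f, Abcc4 and Zadh2), 1 in the corpus (Akr1b8) and 2 in the cauda (Pla2g4a and Slco2a1). The median difference between cauda and caput over the 19 genes was -0.22 log2. Pla2g4a, the cytosolic phospholipase that releases arachidonic acid, was 23.7, 12.5 and 13.3 in the caput, 18.2, 9.77 and 14.5 in the corpus and 55.2, 68.8 and 94.5 in the cauda (cauda minus caput 2.51 ± 0.39 log2). Slco2a1, the prostaglandin uptake transporter, was 5.12 to 13.5 in the caput and 19.95 to 28.9 in the cauda (2.22 ± 0.38 log2). Abcc4, an efflux pump for prostaglandins, went the other way, from 8.51 to 12.4 in the caput to 0.371 and 0.417 in the P56 cauda (-3.66 ± 0.50 log2). The P42 cauda lay above these P56 values (P56 minus P42 -3.51 log2). Pla2g5, a secreted phospholipase, was 15.5, 19.5 and 16.0 in the caput and had 0 UMIs in the principal cells of every other library. Pla2g4f was 1.20 to 2.19 in the caput and also had 0 UMIs in the other segments.

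The cauda was likewise the highest segment in the other cell types. Over 8 types, 36 of 58 tests of a member were called, and in each of the 36 the highest fitted level was in the cauda. In basal cells 5 of 9 genes were called against 14.9% of all genes tested, in clear/narrow cells 7 of 9 against 14.7%, in fibroblasts 4 of 9 against 10.8%, in myoid cells 3 of 6 against 9.72% and in macrophages/monocytes 6 of 9 against 13.1%. In endothelial cells 4 of 6 were called against 9.19%, in halo/T cells 3 of 5 against 15.6% and in sperm 4 of 5 against 30.8%. Clear/narrow and basal cells sat in different clusters in the caput and the cauda. Of the clear/narrow cells of the caput, 612, 520 and 285 (P42, P56 replicate 1 and P56 replicate 2) lay in a cluster led by Stap1, Nupr1 and Atp6v1g3, while those of the P56 cauda lay in a cluster led by Smbd1, Serpinb6b and Rnase1 (382 and 466 cells) and in one led by Napsa and Serpinb6b (423 and 451). In the P56 cauda Ptgds was 8766 and 9938.5 in the first of these and 3009 and 2850 in the second, and Ptgs2 was 30.4 and 46.2 against 11.7 and 14.1. Within the cluster led by Smbd1, which also held 57, 37 and 10 caput cells, Ptgds was 437, 382 and 721 in the caput and 1391, 8766 and 9938.5 in the cauda. Basal cells of the caput lay mainly in a cluster led by Krt5, Rflnb and Tinagl1 (327, 180 and 319 cells) and those of the P56 cauda in one led by Hbegf, Krt15 and Krt14 (980 and 824). Ptgds was called in all 8 types, with cauda minus caput differences of 3.72 log2 (endothelial cells) to 4.76 log2 (basal cells). Ptges3 was called in 0 of the 8 types by edgeR and by DESeq2, and passed an unadjusted p of 0.05 in 1 of them (sperm, edgeR p 0.0421). These counts rested on both P56 pools, with 11 of 58 tests called without replicate 1 and 6 of 50 without replicate 2. Without the P42 pool 39 of 51 were called, and without the pool as a block 26 of 54. Sperm could not be fitted without the P42 pool or without replicate 2. Calls over all genes moved too, in basal cells from 1559 to 388 (no replicate 1), 608 (no replicate 2) and 2770 (no P42).

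Other cell types also held the markers of principal cells. Set against the principal cells of the same library, Ptgds in the other types reached 25.0% to 92.0% in the cauda, and the principal cell markers reached a median of 24.8% to 98.8% of theirs in the same sums. Basal cells of the cauda held Ptgds at 45.3% to 60.9% and the markers at 34.8% to 64.7%, and macrophages/monocytes held Ptgds at 35.4% to 77.6% and the markers at 24.8% to 81.3%. The part of such RNA in the segment differences of the other types was not tested. Ptgs2 in fibroblasts stood at 50.02, 50.8 and 69.2 in the cauda of P42, P56 replicate 1 and P56 replicate 2, against 19.5, 44.1 and 63.2 in principal cells, and Hpgd in macrophages/monocytes stood at 238, 182 and 221 against 169, 184 and 232, so that it was the higher of the pair at P42 alone.

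**Figure D2:**
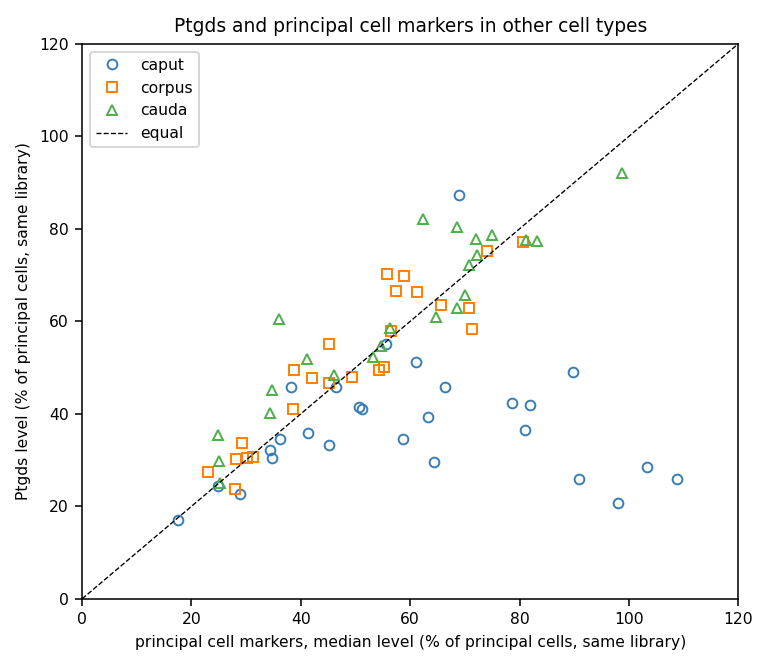
Level of Ptgds in each cell type other than principal cells against the median level of the principal cell markers in the same cells, both as a percentage of the principal cells of the same library, with 1 point for each type and library and the dashed line at equality. In the cauda Ptgds runs from 25.0% to 92.0% beside markers from 24.8% to 98.8%.

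Cell types were also set against principal cells in the caput libraries alone, by edgeR's quasi-likelihood test over 12072 genes with the library as a block, an analysis chosen after the data were seen. Ptgds was lower than in principal cells in all 9 other types, by -1.27 ± 0.21 log2 in sperm to -2.68 ± 0.21 log2 in basal cells, and stood at 692, 815 and 820 in principal cells against 169, 185 and 139 in basal cells. In these caput sums the other types held Ptgds at 16.9% to 87.4% of the principal cells of their library and the principal cell markers at a median of 17.5% to 109%, and the part of such RNA in these contrasts was not tested. The lists of genes called in these contrasts were 20.1% of all genes for basal, 13.1% for clear/narrow, 15.1% for ciliated, 11% for fibroblast, 11% for myoid, 8.61% for macrophage/monocyte, 19.3% for endothelial, 2.1% for halo/T and 26.5% for sperm.

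Hpgds belonged to another cell type. Macrophages/monocytes held 62.3% of its 1785 UMIs, and an Hpgds UMI was seen in 25.0% of macrophages/monocytes against 1.18% of principal cells (medians of 4929.5 and 5979 UMIs per cell). Its level in macrophages/monocytes was 107, 59.8 and 27.9 in the caput, 86.6, 45.2 and 31.2 in the corpus and 109, 31.4 and 27.5 in the cauda, in the order P42, P56 replicate 1 and P56 replicate 2. In the caput libraries Hpgds exceeded principal cells by 4.26 ± 0.30 log2 (edgeR, adjusted p 4.49e-15), and ciliated cells, at 11.2, 19.7 and 32.9, exceeded them by 2.26 ± 0.50 log2. Unlike Ptgds, Hpgds was not called between segments in macrophages/monocytes (cauda minus caput -0.15 ± 0.24 log2, adjusted p 0.857). The macrophage clusters differed in Hpgds. In the cluster led by Ccl4, Ctss and Rgs1 it was 27.7 to 172 and in the cluster led by Ccl8, Pf4 and Mrc1 it was 20.6 to 141, whereas in the cluster led by Retnla and H2-Ab1, H2-Aa and H2-Eb1 it was 0 to 20.5, with 0 in 3 of its 5 sums.

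**Figure D3:**
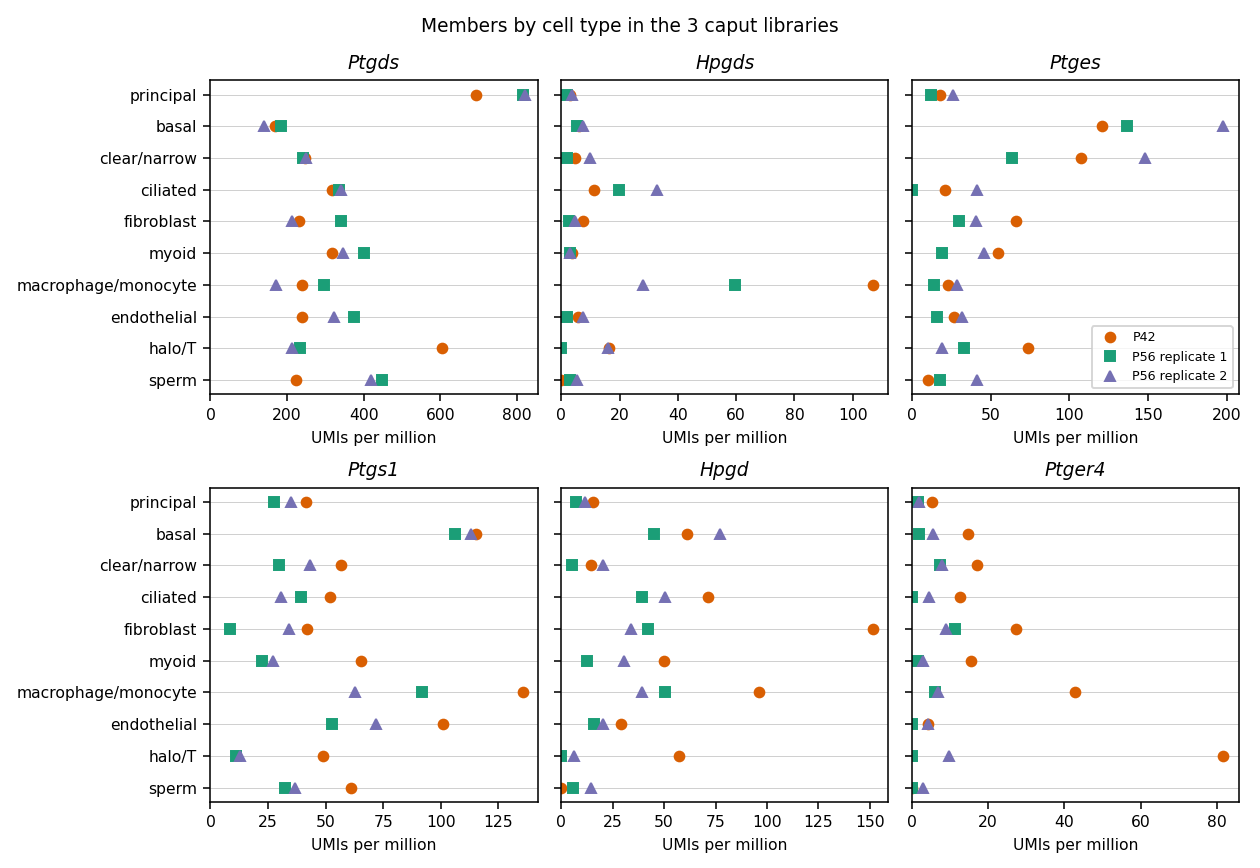
Level of 6 genes by cell type in the 3 caput libraries, in CPM, with 1 point for each library that held at least 10 cells of the type. Principal cells are highest for Ptgds (692 to 820), macrophages/monocytes for Hpgds in 2 of the 3 libraries (59.8 and 107), and basal and clear/narrow cells for Ptges (63.3 to 198).

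In the caput, Ptges and Ptgs1 were higher in some other cell types than in principal cells. Ptges stood at 121, 136 and 198 in basal cells and 108, 63.3 and 148 in clear/narrow cells of P42, P56 replicate 1 and P56 replicate 2, against 17.9, 11.8 and 26.3 in principal cells. No library overlapped with principal cells, and the differences from principal cells were 2.60 ± 0.19 log2 for basal cells, 2.15 ± 0.19 log2 for clear/narrow cells and 1.18 ± 0.22 log2 for fibroblasts, all called by edgeR. Ptgs1 stood at 115, 106 and 113 in basal cells and at 136, 91.9 and 62.7 in macrophages/monocytes against 27.4 to 41.5 in principal cells (1.25 ± 0.17 and 1.28 ± 0.18 log2). Basal cells were therefore above the principal cells of their own library for both genes in all 3 pools.

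Hpgd and Ptger4 were likewise higher in some other cell types of the caput. Hpgd exceeded principal cells in fibroblasts (2.48 ± 0.26 log2), macrophages/monocytes (2.21 ± 0.27), basal cells (1.99 ± 0.25), ciliated cells (1.76 ± 0.34) and myoid cells (1.08 ± 0.35), each called by edgeR. In fibroblasts it was 151, 42.3 and 34.1. Ptger4 exceeded principal cells in halo/T cells (2.86 ± 0.61 log2), macrophages/monocytes (2.39 ± 0.32), fibroblasts (2.18 ± 0.34) and clear/narrow cells (1.55 ± 0.30). The halo/T value rested on the P42 library, at 81.7 against 0 and 9.69 in the P56 replicates. Ptgr1 exceeded principal cells in ciliated cells alone (1.47 ± 0.52 log2), where it was 21.0, 6.56 and 2.19. This value rested on the P42 library with its 15 UMIs, since each P56 library held 1 UMI, and replicate 2 was below its own principal cells (2.79).

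Over all segments, the cell types were put in the order of their mean levels for each member, and neighbours were compared. Neighbours are the closest pairs in these means by construction, so the number of calls does not show how far apart the types lie. Of 81 contrasts between neighbours in that order, 3 were called by edgeR with the library as a block. These were Ptgds in principal cells over halo/T cells (1.24 ± 0.16 log2, with 8.79% of all genes called between these types), Hpgds in macrophages/monocytes over ciliated cells (2.35 ± 0.45 log2, 14.6%), although in the caput, the one segment with ciliated cells, replicate 2 of P56 went the other way (27.9 against 32.9), and Hpgd, which fitted lower in clear/narrow than in ciliated cells (-1.45 ± 0.47 log2, 11.9%) although its mean was higher there, since ciliated cells came from the caput alone. The call of Ptgds over halo/T cells was lost with TMM factors set to 1 (0.85 log2), and that of Hpgd was lost without the P42 pool (-1.505 log2). For Ptges3 no neighbours were called apart. The order began with ciliated cells (mean 361, SD 89.1, n = 3 libraries) and basal cells (219, SD 44.0, n = 9) and ended with principal cells (158, SD 21.5, n = 9). In the caput of P42, P56 replicate 1 and P56 replicate 2, Ptges3 was 384, 262 and 436 in ciliated cells. Principal cells of the same libraries stood at 195, 150 and 178. Within sperm Ptges3 was 242 to 680 in the cluster led by Ldhc, Meig1 and Fabp9 and 77.9 to 154 in the cluster led by Prm2, Prm1 and Smcp. Ptgs2 had its highest mean in fibroblasts (28.6, SD 24.3, n = 9), and there it exceeded principal cells by 1.69 ± 0.35 log2 within libraries.

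The genes most like each member were found by the correlation of log2 levels, with 1 CPM added, over 83 sums per library and cell type, among 7767 genes (7768 for Ptgr1). These sums share libraries and depth and may share free RNA, which was not measured, so the correlations are a description. For Ptgds they were Spink10 (r = 0.984), Serpina1f (0.962), Ces5a (0.959), Wfdc15b (0.951) and Acbd7 (0.948). For Hpgds they were Ctss (0.842) and Ms4a7 (0.833). For Ptgs1 they were B2m (0.825) and Smarca1 (0.817), for Ptges Ly6e (0.801) and B2m (0.781), and for Hpgd Prps2 (0.812) and Qsox1 (0.785). For Ptgs2 they were Serpine2 (0.817) and Id2 (0.739), for Ptges3 Arl3 (0.767) and Ift74 (0.741), for Ptger4 Pld3 (0.645) and Cyth4 (0.616), and for Ptgr1 S100a8 (0.633) and Ptgs2 (0.628).

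Between the ages, principal cells differed in few members in the caput and corpus and in most members in the cauda. In the caput 0 of 9 genes were called between P56 and P42 by edgeR, against 0.66% of all genes, 2 (Ptgs2 and Ptger4) passed an unadjusted p of 0.05, and DESeq2 called 0. Ptger4 was called lower at P56 with TMM factors set to 1 (-1.59 log2), with no filter (-1.27 log2), with cells gated one by one (-1.76 log2) and without the principal cluster led by immunoglobulin genes (-1.28 log2). In the corpus 2 of 9 were called against 2.67% of all genes. Ptgds was higher at P56 (2615 at P42 against 3898 and 6169, 1.44 ± 0.32 log2, adjusted p 0.0449), and Ptgr1 was lower (2.99 against 0.678 and 0.406, -1.97 ± 0.39 log2, adjusted p 0.0329). In the same corpus principal cells the 9 fibroblast markers summed to 1576 CPM at P42 against 179 and 192 at P56, and the 11 macrophage/monocyte markers to 324 against 84.9 and 76.1. The part of this RNA in the age differences was not tested. Both calls lay near the threshold. That of Ptgds was lost with TMM factors set to 1 (0.94 log2) and with 5 of the 6 P56 libraries left out in turn (1.02 to 1.45 log2), and that of Ptgr1 was lost without the corpus library of replicate 2 (-1.69 log2) or without either P56 cauda library (-1.97 log2 each).

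In the cauda 7 of 9 genes were called between the ages against 18.2% of all genes, on 158 principal cells at P42. Ptgds was 1752 at P42 and 12487 and 12708 at P56 (3.95 ± 0.37 log2, adjusted p 0.000171 by edgeR). Ptgs1 (2.21 ± 0.23 log2), Ptgs2 (2.56 ± 0.49), Ptges (2.17 ± 0.47), Ptges3 (1.03 ± 0.19) and Hpgd (1.40 ± 0.28) were also higher at P56, and Hpgds was lower (-3.96 ± 0.90), with adjusted p of 0.0126 or less. DESeq2 called 6 of these 7, with Ptges3 at 0.92 log2. The scale of this comparison moved with its normalization. The median difference of all genes was 0.69 log2 with TMM factors and -0.27 log2 with TMM factors set to 1. Relative to these medians Ptgds stood 3.25 and 3.12 log2 higher, but the calls went from 6 higher and 1 lower at P56 to 2 higher and 2 lower. With TMM factors set to 1, Ptgds (2.84 log2) and Ptgs1 (1.11 log2) were called higher and Hpgds (-5.05 log2) and Ptger4 (-2.30 log2) lower, the calls of Ptgs2 (1.46 log2), Ptges (1.07 log2) and Hpgd (0.30 log2) were lost, and Ptges3 turned from 1.03 log2 to -0.0705 log2. With the low-depth P42 cauda cluster counted as principal cells, a choice made after the data were seen, the median of all genes was 0.0039 log2, Ptgds was called at 2.65 ± 0.35 log2, Ptgs1 at 1.43 ± 0.19, Ptgs2 at 1.46 ± 0.26, Ptges at 1.43 ± 0.35 and Hpgds at -2.51 ± 0.55, and Ptges3 (0.70 log2) and Hpgd (0.61 log2) were not called. In that cluster Ptgds stood at 3656, Ptgs1 at 213, Ptges at 131 and Hpgd at 243. Beside Hpgds, whose transcripts were found mainly in macrophages/monocytes, the macrophage/monocyte markers in principal cells of the cauda summed to 2696 at P42 and to 39.5 and 82.7 at P56.

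The age difference itself differed between cauda and caput for 5 of 9 genes, against 14.4% of all genes. It differed by 3.40 ± 0.44 log2 for Ptgds, 2.32 ± 0.28 for Ptgs1, 3.79 ± 0.73 for Ptgs2, 1.82 ± 0.36 for Hpgd and -4.06 ± 0.99 for Hpgds (cauda minus caput, adjusted p of 0.0253 or less by edgeR). The P42 cauda, with its 158 cells and its fibroblast markers, enters each of these values. Its principal cells held 6 Ptgs2 UMIs (19.5 CPM, exact 95% Poisson interval 7.14 to 42.4) and 10 Hpgds UMIs in 8 cells. In the caput, principal cells held 17, 7 and 11 Ptgs2 UMIs (P42, P56 replicate 1 and P56 replicate 2). This fit held no term for the pool, although each pool gave 1 library of every segment. With the pool as a block, an alternative chosen after the data were seen, these 5 genes were called at 3.40, 2.32, 3.803, 1.83 and -4.11 log2 in the same order, and Ptges was called as well (1.86 ± 0.38 log2). The call of Hpgd was lost with TMM factors set to 1 (1.01 log2) and with the low-depth cluster counted as principal cells (1.03 log2), and those of Ptgs2 (1.88 log2) and Hpgds (-2.02 log2) were lost with cells gated one by one. Between corpus and caput 0 of 9 age differences were called apart by edgeR, against 0.129% of all genes, 2 (Ptgr1 and Ptger4) passed an unadjusted p of 0.05, and DESeq2 called 0. With the pool as a block, 2028 of the 17880 genes tested passed an unadjusted p of 0.05 in this contrast.

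**Figure D4:**
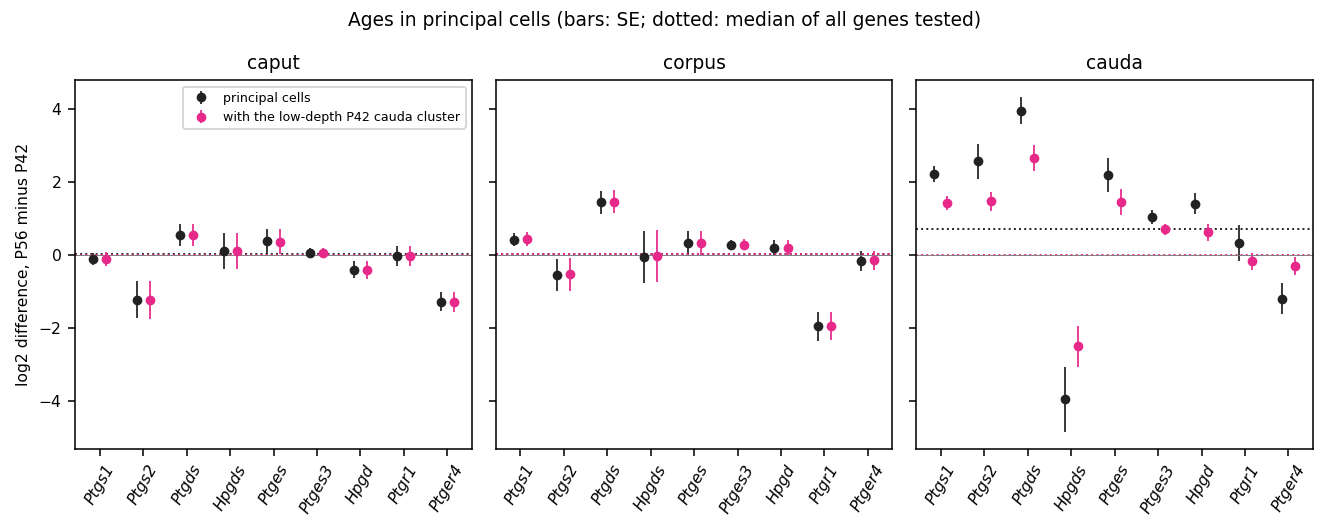
Log2 difference between P56 and P42 in principal cells for 9 genes in each segment, with bars for the SE and a dotted line at the median of all genes tested, for the named principal cells and with the low-depth P42 cauda cluster added. In the cauda Ptgds stands at 3.95 and 2.65 log2 and Hpgds at -3.96 and -2.51 log2 under the 2 definitions, whereas in the caput 0 of the 9 genes were called.

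Macrophages/monocytes also differed between the ages, in an analysis chosen after the data were seen that set P56 against P42 within a cell type with the segment as a block. The 3 P42 libraries come from 1 pool of mice, so that p-values measure less than the spread between pools. Ptger4, the receptor through which prostaglandin E acts on many immune cells, was 42.9 (caput), 74.7 (corpus) and 76.8 (cauda) at P42, and at P56 it was 6.13 and 6.84, 17.0 and 18.1, and 15.7 and 18.6 in the same order of segments. Every P42 library was above every P56 library. The difference was -1.78 ± 0.21 log2 (edgeR, adjusted p 0.00203). Ptger4 was not lower in these cells alone. In the sums of all cells it was 11.9 to 32.5 at P42 and 2.57 to 9.77 at P56. In clear/narrow cells it was 11.5 to 32.8 against 5.02 to 10.5. The difference there (-0.82 ± 0.19 log2) passed the adjusted p (0.0295 by edgeR) but missed the size of 1 log2. Hpgds was also lower at P56 in macrophages/monocytes (-1.01 ± 0.23 log2, adjusted p 0.0137 by edgeR), with 86.6 to 109 at P42 and 27.5 to 59.8 at P56, and again without overlap. In these cells 17.6% of all genes were called.

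**Figure D5:**
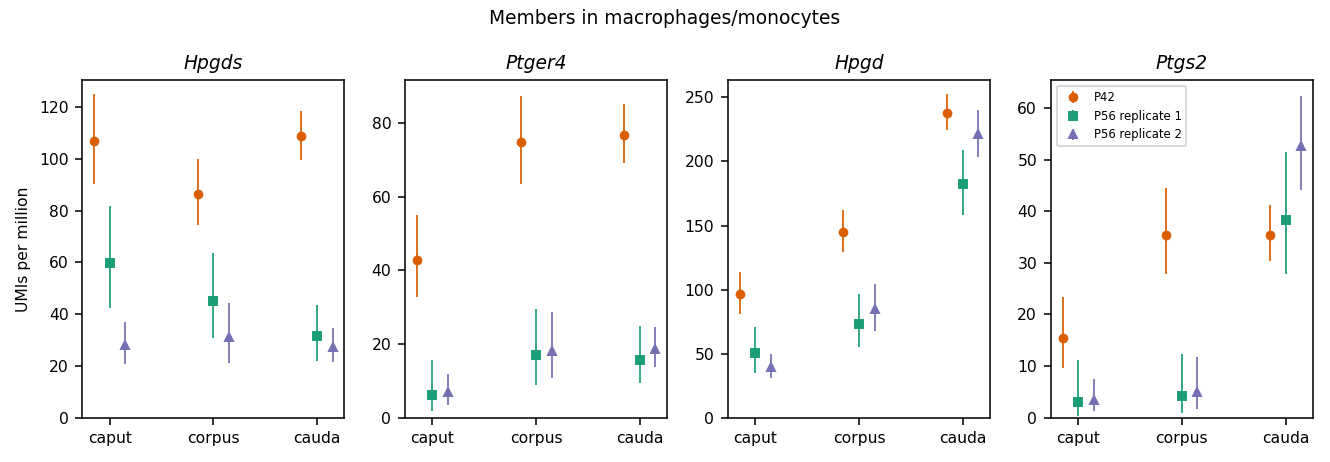
Level of Hpgds, Ptger4, Hpgd and Ptgs2 in macrophages/monocytes by segment and library, in CPM, with bars for the exact 95% Poisson interval, which covers counting error only. The P42 points lie above all P56 points for Hpgds (86.6 to 109 against 27.5 to 59.8) and for Ptger4 (42.9 to 76.8 against 6.13 to 18.6).

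Within a single macrophage cluster, that led by Ccl4, Ctss and Rgs1, Hpgds stood at 111, 135 and 172 in the P42 caput, corpus and cauda and at 27.7 to 56.4 at P56, and Ptger4 stood at 43.4, 129 and 87.5 against 4.57 to 26.5. Macrophages/monocytes held 20 principal cell markers that summed to 81480 CPM in the caput at P42 and to 167930 and 180230 at P56, and to 2871 against 26695 and 33725 in the cauda. The 9 fibroblast markers in the same sums moved the other way, from 1348 at P42 to 306 and 298 at P56 in the caput, from 3447 to 925 and 487 in the corpus and from 22802 to 1202 and 890 in the cauda. The part of this RNA in the age differences was not tested. With TMM factors set to 1, which moved the median of all genes from 0.01 to -0.49 log2, both differences stayed below that median (Ptger4 -2.28 and Hpgds -1.505 log2), and Ptgr1 was called as well (-1.15 log2). Ptgds was higher at P56 in macrophages/monocytes (2.09 ± 0.68 log2, adjusted p 0.0456 by edgeR), a call lost at that scaling (1.63 log2). In the caput the ages overlapped, with 239 at P42 against 297 and 170 at P56. In the cauda it was 620 against 9002 and 9861. Ptgds was also called higher at P56 in endothelial cells (2.39 ± 0.55 log2, with 6.64% of all genes called), myoid cells (2.13 ± 0.53 log2, 15.2%) and sperm (1.90 ± 0.28 log2, 5.27%). These calls held with TMM factors set to 1 (1.98, 1.66 and 1.63 log2). Each value is a common age difference fitted over all segments, and the segments were uneven. In the caput Ptgds was 240 at P42 against 374 and 322 at P56 in endothelial cells, and 317 against 400 and 346 in myoid cells. In the cauda it was 439 against 7314 and 9890, and 908 against 9291 and 9989. In sperm it was 223 against 449 and 420 in the caput and 1440.5 against 8004 (replicate 2) in the cauda. In fibroblasts, where 21.1% of all genes were called, Ptgds was higher at P56 (2.23 ± 0.67 log2) and Ptgr1 was lower (-1.05 ± 0.30 log2), and Ptger4 (-0.92 ± 0.23 log2) and Hpgd (-0.82 ± 0.27 log2) passed the adjusted p but missed the size of 1 log2. The cauda fibroblasts of the 2 ages were spread unlike over the clusters. The cluster led by Col1a1, Col1a2 and Col3a1 held 753 cauda cells at P42 and 1 and 0 at P56. The cluster led by Col6a5, Igf1 and Sult1e1 held 361 at P42 and 43 and 11 at P56. The cluster led by Mgp, Apod and Sfrp1 held 306 at P42 and 453 and 384 at P56. Within that cluster of the cauda Ptgds was 1247 at P42 against 8384 and 9895 at P56 and Ptgr1 was 25.0 against 10.7 and 12.9, while Hpgd overlapped between the ages (191 against 132 and 198). In the caput the same cluster held Ptgds at 233 at P42 against 331 and 212 at P56, so that the ages overlapped. With TMM factors set to 1, where the median of all genes in fibroblasts was -0.46 log2, Ptger4 (-1.36 log2), Hpgd (-1.24 log2) and Hpgds (-2.15 log2) were called lower at P56 too. At that scaling Ptger4 was also called lower in clear/narrow (-1.34 log2) and principal cells (-1.41 log2). Ptgds was then called higher in basal (1.55 log2) and clear/narrow cells (1.40 log2). The medians of all genes were -0.41 log2 in principal and basal cells and -0.49 log2 in clear/narrow cells.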

How the data were processed

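Single cells of the caput, corpus and cauda were captured in microwells with barcoded beads, and the authors mapped reads with STAR 2.7.3a to GRCm38.p6 and tallied UMIs with UMI-tools (names from the submitters' processing notes and the study's methods). The deposited table holds raw counts without normalization, 307987941 UMIs in whole numbers, 23114756 to 50655384 per library. All further steps were run here. Barcodes with 300 to 4000 genes, at most 20000 UMIs and less than 50% mitochondrial UMIs were kept. Cells were clustered (scanpy 1.11.5, 3000 variable genes, 50 components, 20 neighbours, resolution 1, 38 clusters) without the members and named from marker lists. Scrublet marked 15 cells and so gave no working doublet call, and doublets were not removed. Counts were summed per library and cell type with at least 10 cells, and tested with edgeR 4.0.16 (R 4.3.3), with filterByExpr and TMM, with calls at 1 log2 and a p under 0.05 after Benjamini-Hochberg adjustment. Ages were fitted with 1 mean per segment and age, where the lone P42 library is assumed to vary like the P56 libraries. Each SE of a log2 difference was derived from its test, as the absolute difference divided by the square root of the quasi-likelihood F. Scripts were tested on simulated counts.

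The pool was a block between segments, since its 3 segments come from the same mice. Deviations from the segment means correlated by 0.0355 to 0.454 (median 0.278) in 9 pairs of the same pool and by -0.444 to 0.337 in 18 pairs of different pools. Among the latter, pairs of different ages lay between -0.444 and -0.0174, and pairs of different P56 pools between -0.00207 and 0.337. Pools are nested in ages and deviations share a segment mean, so these correlations cannot tell a pool effect from age.

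The 10 members, the pathway list and the marker lists were chosen with earlier results of these data known. Named in the text were all members, at most 5 pathway genes called with the largest change (and any gene that a count of 5 or fewer turns on), and the genes with the highest correlation with a member (5 for Ptgds, 2 for the others). Of 28 pathway genes, 27 had a row in the table used here, and Prxl2b stood for Fam213b. Genes that lead a cluster were named by their fold in it.

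Alternatives were DESeq2 1.42.0, no filter, no block, TMM factors set to 1, mitochondrial genes left out, cells gated one by one on markers (27753 cells, 86.5% with the same name), a resolution of 2, removal of the top 5% of Scrublet scores, and each pool or P56 library left out. Chosen after seeing the data were the low-depth P42 cauda cluster counted as principal, the principal cluster led by immunoglobulin genes left out, each type against principal cells, ages within other types, and the pool as a block in the difference of ages between segments.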

Additional observations from a re-analysis of the deposited data

Results flagged for a closer look

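For 5 genes the difference between P56 and P42 in principal cells was not the same in the cauda as in the caput, by the contrast of both differences in edgeR's quasi-likelihood fit (adjusted after Benjamini-Hochberg). Cauda minus caput was 3.40 log2 for Ptgds, 2.32 log2 for Ptgs1, 3.79 log2 for Ptgs2, 1.82 log2 for Hpgd and -4.06 log2 for Hpgds. In the caput the 3 libraries of Ptgds lay close together (692, 815 and 820 CPM), and in the cauda P42 stood at 1752 and the P56 replicates at 12487 and 12708. The P42 cauda sum held 158 cells with 6 Ptgs2 UMIs and 10 Hpgds UMIs, and fibroblast markers in it summed to 30659 CPM against 339 and 359 at P56. The part of these cells in the differences was not tested. With the low-depth P42 cauda cluster counted as principal cells, 4 of the 9 genes were called. The share of all genes called was 14.4% in the fit without that cluster and is not given here for the fit with it.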

How the results depend on the processing

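The 7 calls between segments in principal cells stayed between 5 and 8 over all alternatives. With the pool left out as a block (no pairing of segments by mice), 7 members were called in principal cells. In the other cell types 26 of 54 tests were called in place of 36 of 58. Leaving out 1 pool in turn gave between 6 calls in 50 tests and 39 in 51 in the other types. Sperm could not be fitted without the P42 pool or without P56 replicate 2. With cells gated one by one, 7 neighbouring cell types were called apart in place of 3, and 3 age differences differed between cauda and caput in place of 5. The share of all genes called with gating is not given here. With the pool as a replicate block, 6 age differences did, where 2554 of 17880 genes were called, against 2566 without that block. Ptges3 between the ages in the cauda turned from 1.03 to -0.0705 log2 with TMM factors set to 1. Of the values of single members under alternatives, 583 kept their direction and side of the threshold, 106 kept the direction alone and 1 reversed.

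Over all genes, calls between segments in principal cells fell from 5586 to 1636 without P56 replicate 1 and 2325 without P56 replicate 2. In the other types, counts more than 1.5 times apart lay between 202 and 1136 without either P56 pool, against 510 to 2069. Without the P42 pool they were 2770 in basal cells, 2415 in fibroblasts, 1043 in myoid cells and 2436 in macrophages/monocytes, against 1559, 1169, 510 and 1360. With no filter they were 2409 in basal cells, 2207 in fibroblasts, 2657 in clear/narrow cells, 1006 in myoid cells, 2417 in macrophages/monocytes and 855 in halo/T cells. With no block they were 525 in fibroblasts, 281 in myoid cells, 646 in macrophages/monocytes, 301 in endothelial cells and 270 in halo/T cells. Gating gave 1085 in clear/narrow cells, 1761 in fibroblasts, 888 in macrophages/monocytes and 1142 in sperm, and a doubled resolution gave 681 in fibroblasts. Between the ages, calls in the caput went from 118 to 655 with no filter, 297 with TMM factors set to 1 and 225 with gating, and calls in the corpus from 478 to 1175, 1317 and 1097. With 1 P56 library left out, calls in the caput fell to 69 (caput of replicate 2), 73 (cauda of replicate 1) and 65 (cauda of replicate 2), and those in the corpus to 136 (corpus of replicate 2) and 303 (cauda of replicate 2). For the difference between corpus and caput, 23 became 9 to 540 (91 with the pool as a block), and for that between cauda and caput 2566 became 1661 with TMM factors set to 1. The cause was not tested, apart from the smaller number of libraries or the larger number of genes by construction. Ptgfr, with 41 UMIs, could not be tested.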

Other observations

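Other genes of the pathway had their highest mean level outside principal cells. Ptgis, the prostacyclin synthase, was highest in fibroblasts (mean 68.9 CPM, SD 47.7, n = 9 libraries), and Tbxas1, the thromboxane synthase, in macrophages/monocytes (26.0, SD 23.2, n = 9). Slco2a1 (84.0, SD 47.7) and Prxl2b (76.6, SD 46.3), a reductase that makes prostaglandin F, were highest in basal cells, and Abcc4 was highest in clear/narrow cells (25.5, SD 12.0). The other prostaglandin receptors were low. The highest mean was 2.65 for Ptger3 (fibroblasts), 2.17 for Ptgir and 1.49 for Ptger2 (macrophages/monocytes), and 1.27 for Ptgdr2 (sperm). These genes were chosen after their values were seen and the levels were not tested.

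The unnamed cells carried members as well. The cluster of 929 cycling cells, led by Cenpf, Hmmr and Prc1, held Ptgds at 2047 CPM and Ptges3 at 260. A cluster of 393 caput cells with basal and principal markers held Ptgds at 185 and Ptges at 45.4.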
